A study of Mus musculus with 6 samples.

Results

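The genes described here are 57 genes of mitosis, the spindle and the kinetochore in haematopoietic stem cells (HSCs) of mouse bone marrow. They were chosen by name from their known roles, but with earlier results of these data known, so no count over them is independent evidence. Of the 57, 55 had a transcript cluster with a single gene symbol on the array, among 22180 such genes in all. A transcript cluster is the set of probes that the array reads as 1 gene. Ccnb1 (cyclin B1) had no cluster under its symbol, and Ncapg (a condensin subunit) shared its cluster with another symbol, so both stayed out. Espl1, which encodes separase, read 6.72, 6.79 and 6.63 on Chrm1-/- arrays, against 6.79, 6.79 and 6.69 on WT arrays, and its mean over the arrays lay under the log2 signal of 6.77 set for testing. The remaining 54 members were tested.

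The HSCs were sorted as Lineage-Sca1+cKit+Flt3- cells from C57Bl/6 mice at steady state, with no treatment in either group. The Chrm1-/- group, whose mice lack the muscarinic acetylcholine receptor gene Chrm1, gave 3 arrays, and the WT group gave 3 arrays. The labels name no Cre driver or promoter for the deletion and give no age, and they do not say whether the arrays of a group come from separate mice. The comparison asks how HSCs of mice without the receptor differ in expression before any challenge, and here how their cell division genes differ.

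Mitosis separates copied chromosomes. Cyclin-dependent and Polo-like kinases start it, the kinetochore couples each centromere to spindle microtubules, a checkpoint holds anaphase until every chromosome is attached, and the central spindle then guides the cut between the daughter cells. HSCs are mostly quiescent and divide rarely, so transcripts of this programme in a sorted HSC pool come largely from the cells that cycle. How much of the pool sorted here was quiescent was not measured. In bulk samples, fewer cycling cells and less RNA per cycling cell cannot be told apart.

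Many mitotic genes carry a short promoter element, the cell cycle genes homology region (CHR), which MuvB complexes bind: the repressive DREAM complex in resting cells, and complexes with B-Myb and FoxM1 in dividing cells. CCAAT boxes, bound by the factor NF-Y, often lie just upstream of it. The letters TTTGAA or else TTTAAA for the CHR, with CCAAT for the box, were searched on both strands of the 300 bases around each annotated gene start, 250 before it and 50 from it on, in the promoter table from RefSeq (GRCm38.p6). A match on the other strand reads TTCAAA or else TTTAAA for the CHR and ATTGG for the box, and a CHR match shared bases with a CCAAT match in 1 member promoter. A CHR match stood in 41 of 54 promoters of the 49 members found in that table (75.9%), against 27.6% of all 32851 promoters. A CCAAT match stood in 40 of the 54 (74.1%), against 37.4% of all promoters, and both stood in 34 (63%), against 10.7%. These matches describe letters and not binding.

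The promoters of 6 members whose signals separated the genotypes are shown, since they differ in these elements. Each line runs 5′ to 3′ on the gene's strand, from 150 bases before the RefSeq start through the first 12 bases of the transcript, 162 bases in all. Capitals mark CHR and CCAAT letters, and positions are counted from the start, with negative ones before it.
Top2a (chr11:99024178-99024339, minus strand): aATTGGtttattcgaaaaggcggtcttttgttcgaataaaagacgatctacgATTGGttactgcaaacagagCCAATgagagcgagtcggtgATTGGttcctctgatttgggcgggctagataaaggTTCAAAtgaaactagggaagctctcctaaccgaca
Racgap1 (chr15:99651645-99651806, minus strand): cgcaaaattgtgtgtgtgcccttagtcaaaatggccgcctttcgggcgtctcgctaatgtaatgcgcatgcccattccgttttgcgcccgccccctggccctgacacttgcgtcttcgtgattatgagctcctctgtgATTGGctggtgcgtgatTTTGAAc
Cenpn (chr8:116921590-116921751, plus strand): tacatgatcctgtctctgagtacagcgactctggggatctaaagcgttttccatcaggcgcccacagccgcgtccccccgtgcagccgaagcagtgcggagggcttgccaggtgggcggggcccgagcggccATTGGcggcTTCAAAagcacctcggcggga
Spc25 (chr2:69206202-69206363, minus strand): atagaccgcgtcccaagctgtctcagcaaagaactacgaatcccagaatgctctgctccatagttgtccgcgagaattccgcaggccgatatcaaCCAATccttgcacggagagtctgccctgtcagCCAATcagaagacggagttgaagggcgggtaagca
Nuf2 (chr1:169531453-169531614, minus strand): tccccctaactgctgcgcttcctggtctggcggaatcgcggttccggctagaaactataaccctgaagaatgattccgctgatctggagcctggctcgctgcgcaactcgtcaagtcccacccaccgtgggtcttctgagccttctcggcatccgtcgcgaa
Birc5 (chr11:117849087-117849248, plus strand): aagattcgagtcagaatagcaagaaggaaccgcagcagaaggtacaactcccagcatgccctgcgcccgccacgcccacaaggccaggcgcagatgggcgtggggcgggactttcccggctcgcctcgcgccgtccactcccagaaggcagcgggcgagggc
In the printed stretch Top2a holds a CHR match at -23 after 4 CCAAT boxes, with a further CHR match at -179. In Racgap1 a CCAAT box opens at -12 and a CHR match at base 6 of the transcript. Cenpn has a CCAAT box at -18 and a CHR match at -9. Spc25 has CCAAT boxes at -55 and -23, and its CHR match lies past the printed stretch, at base 25 of the transcript. Nuf2 has neither element in its 300 bases, and Birc5 has a single CHR match, at -220. Of the promoters found for members with an unadjusted p under 0.05, 4 of 5 held a CHR match, and of those of the other tested members 34 of 46 did.

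Before the members, the labels and libraries were checked. Chrm1 read 8.16, 7.52 and 7.58 on Chrm1-/- arrays, against 7.45, 7.44 and 7.67 on WT arrays, and a further Chrm1 cluster read 5.60 to 5.76 in Chrm1-/- and 5.68 to 5.80 in WT. No source used here states which part of Chrm1 was deleted, and these probes therefore check nothing about the genotype. Kit, the stem cell factor receptor used in the sort, read 10.79 to 10.99 in Chrm1-/- and 10.85 to 10.95 in WT. Flt3, the receptor gated against, read 9.95 to 10.29 in Chrm1-/- and 9.87 to 10.09 in WT, above the signal filter. All 13 HSC markers on the array passed the signal filter, which is only the median of gene means. So did 8 of 9 markers of multipotent or lymphoid-primed progenitors, and passing it does not tell these cells apart. Among these 8, Cd34 read 11.23 to 11.37 in Chrm1-/- and 11.14 to 11.29 in WT. Cd48 read 9.74 to 10.41 in Chrm1-/- and 10.19 to 10.53 in WT. The sort as stated names no gate on either, so the pool may hold progenitors as well as HSCs. Array medians ran from 6.49 to 6.57, and pairwise correlations over all clusters from 0.917 to 0.933. Precision is limited by the few arrays: the median standard error (SE) of a member's difference was 0.22 on the log2 scale.

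Most mitotic genes had a slightly lower mean signal in Chrm1-/- HSCs, and none of the single differences passed the test over all genes. Of the 54 members 39 (72.2%) had a lower mean in Chrm1-/- and 15 a higher one, where 49.2% of all 11094 tested genes had a lower and 50% a higher mean. The median difference, Chrm1-/- minus WT, was -0.17 on the log2 scale over the members and 0 over all tested genes. In limma with Benjamini-Hochberg adjustment over all tested genes, 0 members and 0 genes of any kind (0%) passed an adjusted p of 0.05, while 332 genes had an unadjusted p under 0.05. At an unadjusted p under 0.05 there were 6 lower members (Birc5, Nuf2, Cenpn, Racgap1, Spc24 and Top2a), 11.1% of those tested, where 1.6% of all tested genes were lower at that level. The count of higher members at that level was 0, where 1.4% of all tested genes were higher. Cenpn and Kif18a, both counted as lower, passed the signal filter only through their WT means. With no signal filter, 40 of 55 members had a lower mean. In that fit 6 members and 276 of 22180 genes were lower at an unadjusted p under 0.05. The count of 6 rested on single arrays: it was 2 without WT replicate 2 and 3 without Chrm1-/- replicate 2. Of all 11094 tested genes, 182 and 179 were lower at that level in these fits. Since the members were chosen with earlier results of these data known, their shares are descriptions and not independent evidence.

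**Figure D1:**
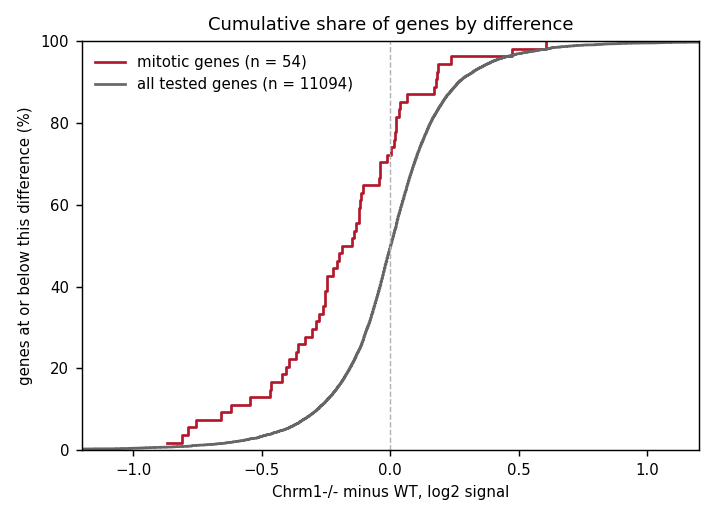
The x axis gives the difference in log2 signal, Chrm1-/- minus WT, and the y axis the percent of genes at or below it, as a step line for the 54 mitotic genes (red) and one for all 11094 tested genes (grey). The red line runs to the left of the grey line over most of its course, with medians of -0.17 and 0, and upper quartiles of 0.01 and 0.12.

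Differences of more than 0.2 in size were also unevenly placed. A difference under -0.2 was seen in 25 members (46.3%), against 15.7% of all tested genes. One above 0.2 was seen in 3 members (5.56%), against 15.2% of all tested genes. Members also spread more than other genes within a genotype: the median SD between arrays was 0.25 in Chrm1-/- and 0.24 in WT for members, against 0.19 in each genotype for all tested genes.

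Across the arrays, the mean log2 signal of the 54 members was 8.86, 8.75 and 8.83 in Chrm1-/-, against 9.07, 9.00 and 8.93 in WT. The Chrm1-/- arrays thus lay below the WT arrays, with the closest pair, Chrm1-/- replicate 1 and WT replicate 3, 0.07 apart. Chrm1-/- replicates 1, 2 and 3 gave the lowest reading for 10, 14 and 14 members, against 3, 2 and 10 members for WT replicates 1, 2 and 3, ties not counted. WT replicate 3 was therefore the WT array nearest the Chrm1-/- arrays. Without it, 46 of the 54 members had a lower mean in Chrm1-/- and the median difference was -0.20. Without WT replicate 1 the count was 35 and the median -0.12. With the 6 genes of unadjusted p under 0.05 set aside, 33 of 48 members were lower, the median was -0.13, and the means of 8.91, 8.79 and 8.88 in Chrm1-/- overlapped those of 9.08, 8.98 and 8.90 in WT.

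The 3 Chrm1-/- readings lay below the 3 WT readings in 8 members (14.8%), where 2.97% of all tested genes were separated in that direction. Separation with Chrm1-/- higher was seen in 0 members, where 2.81% of all tested genes showed it. The 8 were the 6 named above, of which Cenpn was tested only through its WT mean, with Spc25 and Bub1b. Of these, Birc5 and Nuf2 kept an unadjusted p under 0.05 in limma under all 15 alternative analyses, and the other 4 of the 6 did not.

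**Figure D2:**
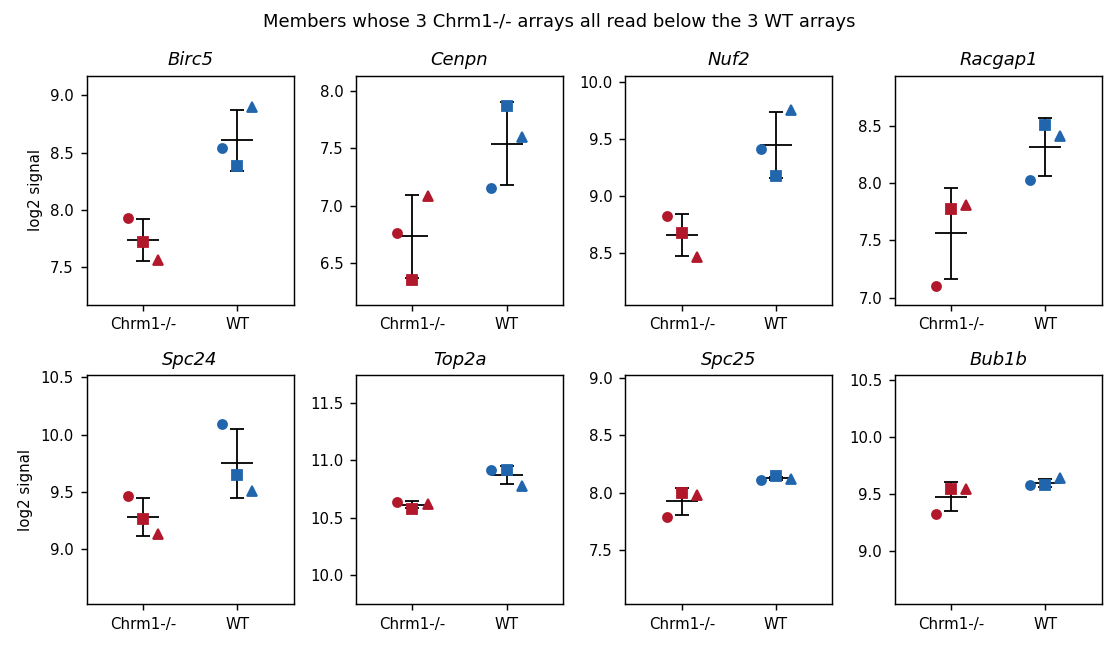
Each panel plots the log2 signal of 1 gene on the 3 Chrm1-/- arrays (red) and the 3 WT arrays (blue), with circles, squares and triangles for replicates 1, 2 and 3, a black dash for the mean and whiskers of 1 SD. All panels span the same number of log2 units, so that the gap between genotypes, -0.87 in Birc5 and -0.12 in Bub1b, can be compared by eye.

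Among the kinases and cyclins that drive entry into mitosis, 4 of 7 tested members had a lower and 3 a higher mean in Chrm1-/-, with a median of -0.15 and 0 members at an unadjusted p under 0.05 in limma. Plk1, the Polo-like kinase of centrosomes and kinetochores, had the largest lower difference, with 8.45, 9.16 and 9.38 on Chrm1-/- arrays, against 9.38, 9.56 and 9.31 on WT arrays. Chrm1-/- replicate 1 stood lowest while replicate 3 lay among the WT arrays, and the difference was -0.42 (95% interval -1.03 to 0.19). Nek2, a kinase that helps separate centrosomes, leaned the other way, with 7.36, 7.04 and 7.99 in Chrm1-/-, against 6.84, 7.00 and 7.13 in WT. Its difference of 0.47 (95% interval -0.14 to 1.09) came mostly from Chrm1-/- replicate 3. Cdk1, the kinase at the centre of mitotic entry, had 9.53, 10.13 and 10.73 in Chrm1-/-, against 10.59, 10.10 and 10.57 in WT, groups that overlapped widely. Its partners Ccna2 (cyclin A2) and Ccnb2 (cyclin B2) differed by -0.28 ± 0.28 (SE) and -0.15 ± 0.12 (SE). Aurka, the Aurora kinase of spindle poles, differed by 0.06 ± 0.36 (SE), and Cdca3, which promotes mitotic entry, by 0.03 ± 0.11 (SE).

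The chromosomal passenger complex corrects faulty attachments and later acts in cytokinesis, and its 4 subunits did not lean the same way. Birc5 encodes survivin, the subunit that brings the complex to centromeres. It read 7.93, 7.72 and 7.56 on Chrm1-/- arrays, against 8.54, 8.38 and 8.90 on WT arrays. Every Chrm1-/- array lay at least 0.45 below every WT array, and the difference of -0.87 ± 0.18 (SE) was the largest lower one of the 54 members. It corresponds to a Chrm1-/- signal 0.547 times that of WT, with an unadjusted p of 0.0024 and an adjusted p of 0.996 in limma. Aurkb, the kinase of the complex, read 8.04, 8.26 and 8.58 in Chrm1-/-, against 8.08, 8.09 and 8.00 in WT. Cdca8 (borealin) differed by 0.18 ± 0.26 (SE) and the scaffold gene Incenp by 0.17 ± 0.25 (SE). These 3 partners thus had higher means in Chrm1-/- with overlapping groups. The 95% interval was -1.30 to -0.44 for Birc5 and -0.15 to 0.62 for Aurkb, and the difference between subunits was not tested.

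Genes of the spindle checkpoint and of the anaphase trigger were close between genotypes, with 5 of 7 tested members lower, 2 higher and a median of -0.04. Ttk, the Mps1 kinase that starts checkpoint signalling, had the widest gap, with 8.56, 8.31 and 8.49 in Chrm1-/-, against 8.50, 9.71 and 9.13 in WT. WT replicate 1 lay among the Chrm1-/- arrays, and the difference of -0.66 ± 0.30 (SE) had an unadjusted p of 0.07 in limma. Without WT replicate 1 the difference was -0.97, with an unadjusted p of 0.006. Bub1b, the BubR1 subunit of the mitotic checkpoint complex, read 9.33, 9.55 and 9.55 in Chrm1-/-, against 9.58, 9.58 and 9.64 in WT. Its groups were separated by 0.03 only, and the difference was -0.12 ± 0.11 (SE). Bub1, the checkpoint kinase of kinetochores, was the highest of the group relative to WT at 0.04 ± 0.22 (SE), with 8.55, 8.55 and 8.74 in Chrm1-/-, against 8.75, 8.87 and 8.11 in WT. Mad2l1 (Mad2) and Bub3, which act with BubR1, differed by -0.14 ± 0.20 (SE) and -0.04 ± 0.18 (SE). Cdc20, the activator of the anaphase-promoting complex, differed by -0.04 ± 0.15 (SE) and Pttg1, which encodes securin, by 0.02 ± 0.14 (SE).

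The centromere and kinetochore held the most genes that separated the genotypes. Of 10 members 9 had a lower mean in Chrm1-/-, 4 were separated and 3 had an unadjusted p under 0.05 in limma. Over all tested genes, 49.2% had a lower mean, 2.97% were separated in that direction and 1.6% were lower at that level. The median of the 10 members was -0.25. Cenpn, which recognises the centromeric nucleosome, read 6.76, 6.35 and 7.08 on Chrm1-/- arrays, against 7.15, 7.87 and 7.60 on WT arrays. The groups came within 0.07 of each other, and the Chrm1-/- mean of 6.73 lay just under the signal set for testing. Cenpn thus entered these counts only through its WT mean. The difference was -0.81 ± 0.26 (SE), with an unadjusted p of 0.019. Cenpe, a kinesin that carries chromosomes to the spindle equator, read 9.89, 9.75 and 8.73 in Chrm1-/-, against 10.12, 9.90 and 9.74 in WT, and Chrm1-/- replicate 3 made most of its difference. Cenpk, of the inner kinetochore, showed the same layout, with 10.68, 10.60 and 9.81 in Chrm1-/-, against 10.71, 10.76 and 10.53 in WT. The other inner and corona genes Cenpa (the centromeric histone), Cenpf and Cenph differed by -0.12, -0.12 and -0.11.

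The NDC80 complex is the kinetochore's microtubule grip, made of Ndc80, Nuf2, Spc24 and Spc25. Nuf2 read 8.83, 8.68 and 8.47 in Chrm1-/-, against 9.41, 9.18 and 9.75 in WT. All Chrm1-/- arrays lay at least 0.35 below the WT arrays, and the difference was -0.79 ± 0.18 (SE) with an unadjusted p of 0.0047 in limma. Spc24 read 9.46, 9.26 and 9.13 in Chrm1-/-, against 10.09, 9.65 and 9.51 in WT. In Spc24 the groups came within 0.05 of each other, and the difference was -0.47 ± 0.19 (SE) with an unadjusted p of 0.044. Spc25 read 7.79, 8.00 and 7.98 in Chrm1-/-, against 8.11, 8.14 and 8.12 in WT, a tighter separation with a difference of -0.20 ± 0.11 (SE). Ndc80 itself went against these subunits and was the least steady of the members. It read 9.29, 6.20 and 9.68 in Chrm1-/-, against 8.10, 7.26 and 7.99 in WT, a span of 3.48 between Chrm1-/- arrays and of 0.84 between WT arrays. The difference of 0.61 ± 0.91 (SE) was 1.70 without Chrm1-/- replicate 2, with an unadjusted p of 0.0025 in limma, and -0.04 without Chrm1-/- replicate 3.

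**Figure D3:**
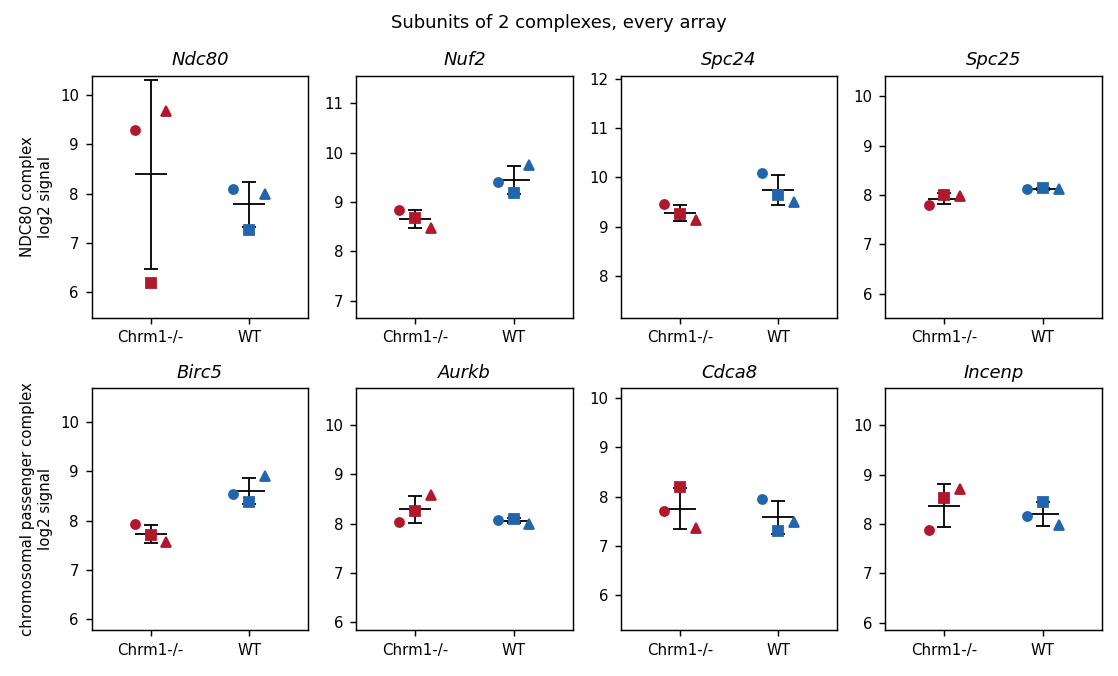
The upper row gives the 4 subunits of the NDC80 complex and the lower row those of the chromosomal passenger complex, as log2 signals on the 3 Chrm1-/- arrays (red) and the 3 WT arrays (blue), with replicates as circles, squares and triangles, means as dashes and whiskers of 1 SD. Nuf2, Spc24, Spc25 and Birc5 were separated by genotype, while Ndc80 spanned 3.48 log2 units within Chrm1-/- and the other passenger subunits overlapped.

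Of the spindle motors and microtubule-associated proteins, 9 of 11 members had a lower mean in Chrm1-/-, with a median of -0.25, and 0 had an unadjusted p under 0.05 in limma. Kif18a, a kinesin that damps chromosome movements, had the largest difference, and it came from a single WT array. It read 6.71, 6.97 and 6.54 in Chrm1-/-, against 8.37, 6.76 and 6.95 in WT, and the difference of -0.62 ± 0.43 (SE) was -0.12 without WT replicate 1. The Chrm1-/- mean of 6.74 lay under the signal set for testing, so Kif18a was tested only through its WT mean. Kif11, the motor that pushes spindle poles apart, read 10.00, 9.91 and 8.66 in Chrm1-/-, against 10.01, 9.89 and 9.77 in WT, so that only Chrm1-/- replicate 3 stood apart. The depolymerising kinesin Kif2c differed by -0.41 ± 0.27 (SE), and the microtubule proteins Ckap2 and Ckap5 by -0.36 ± 0.24 (SE) and -0.25 ± 0.25 (SE). Nusap1, Tpx2, Hmmr and Tacc3, which organise spindle microtubules, differed by -0.25 to -0.11. Kif15, a motor that backs up Kif11, and Dlgap5 (HURP), which stabilises kinetochore fibres, differed by 0.02 each. Dlgap5 read 8.47, 8.51 and 8.45 in Chrm1-/-, against 8.63, 8.48 and 8.25 in WT, groups that overlapped.

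Central spindle and cytokinesis genes had 6 of 8 members lower in Chrm1-/- and 2 higher, and their median of -0.29 was the lowest of the 7 role groups. Racgap1 encodes the GTPase-activating subunit of centralspindlin, the complex that bundles the central spindle. It read 7.10, 7.77 and 7.81 on Chrm1-/- arrays, against 8.03, 8.51 and 8.41 on WT arrays. The groups were 0.22 apart at their nearest, and the mean was lower in Chrm1-/- by a difference of -0.76 ± 0.24 (SE) with an unadjusted p of 0.018 in limma. Kif23, the motor subunit of the same complex, read 8.80, 8.94 and 8.69 in Chrm1-/-, against 8.47, 8.50 and 8.93 in WT. The partners thus leaned in opposite directions, with Kif23 at 0.18 ± 0.16 (SE), and the difference between them was not tested. Ect2, which centralspindlin recruits for cytokinesis, read 9.18, 8.74 and 7.95 in Chrm1-/-, against 8.86, 9.35 and 9.30 in WT. Its difference of -0.55 ± 0.33 (SE) was widened by Chrm1-/- replicate 3. Kif4, Kif20b, Prc1 and Anln, which encode motors, a microtubule bundler and the contractile ring protein anillin, differed by -0.39 to -0.25, and the motor gene Kif20a by 0.01 ± 0.11 (SE).

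Condensin and chromosome genes were close between genotypes, with 5 of 7 tested members lower and a median of -0.04. Top2a, the topoisomerase that untangles sister chromatids, read 10.64, 10.58 and 10.62 in Chrm1-/-, against 10.92, 10.92 and 10.78 in WT, with 0.14 between the nearest arrays of the genotypes. The difference was small, -0.26 ± 0.10 (SE), and the arrays within a genotype lay close together, with SDs of 0.03 in Chrm1-/- and 0.08 in WT and an unadjusted p of 0.041 in limma. Mki67, which encodes the proliferation antigen Ki-67, read 9.40, 9.28 and 9.25 in Chrm1-/-, against 9.56, 9.28 and 9.71 in WT. Its groups met at 9.28, and the 95% interval of its difference ran from -0.55 to 0.14. The condensin core genes Smc2 and Smc4 differed by -0.13 ± 0.17 (SE) and -0.01 ± 0.11 (SE), and Ncaph by -0.04 ± 0.09 (SE). Ncapd2 and Ncapg2 differed by 0.003 and 0.19, each with WT replicate 3 at least 0.69 below the other WT arrays. Ncapg2 read 9.05, 9.71 and 8.46 in Chrm1-/-, against 9.23, 9.06 and 8.37 in WT.

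**Figure D4:**
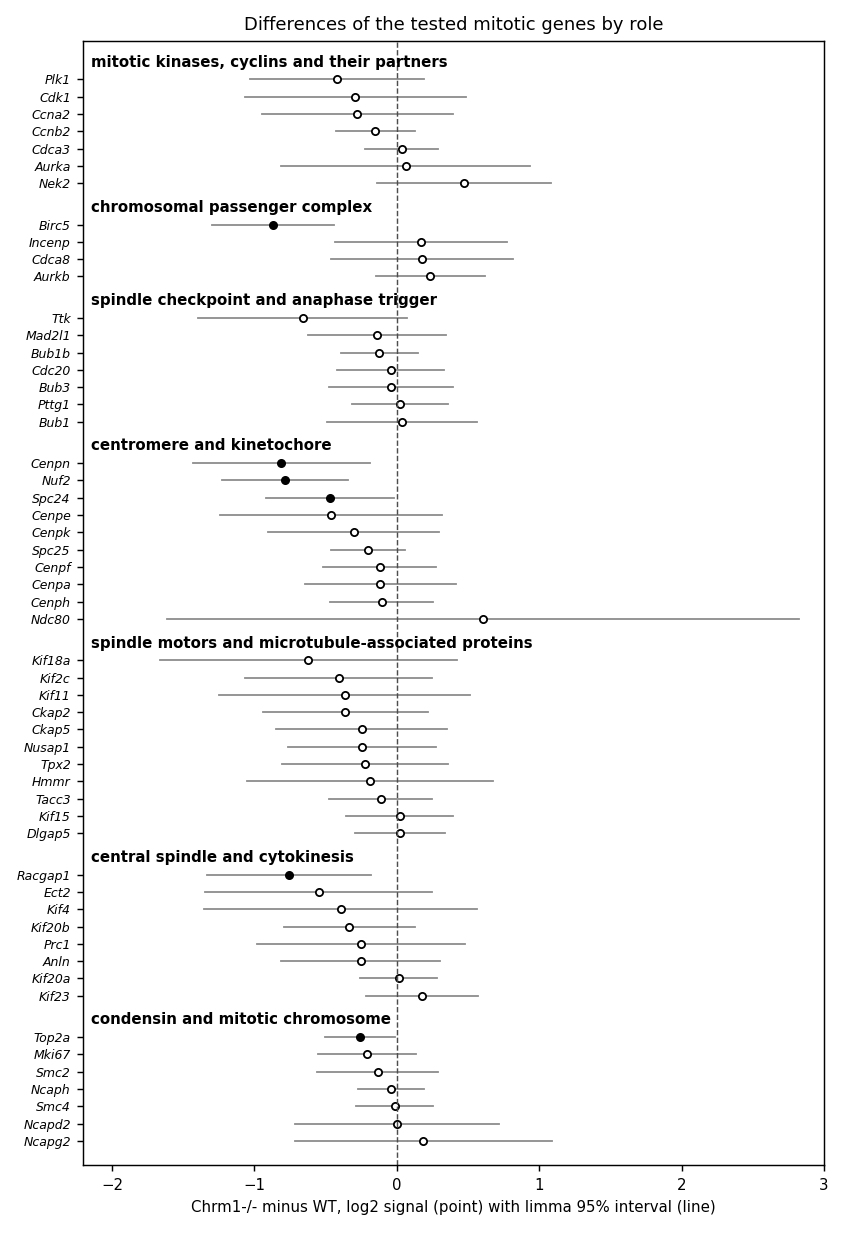
Each row is 1 of the 54 tested genes, grouped by role and ordered within a group by its difference in log2 signal, Chrm1-/- minus WT (x axis). Points give the difference and lines limma's 95% interval, and filled points mark the 6 genes with an unadjusted p under 0.05, from Birc5 at -0.87 to Top2a at -0.26.

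**Figure D5:**
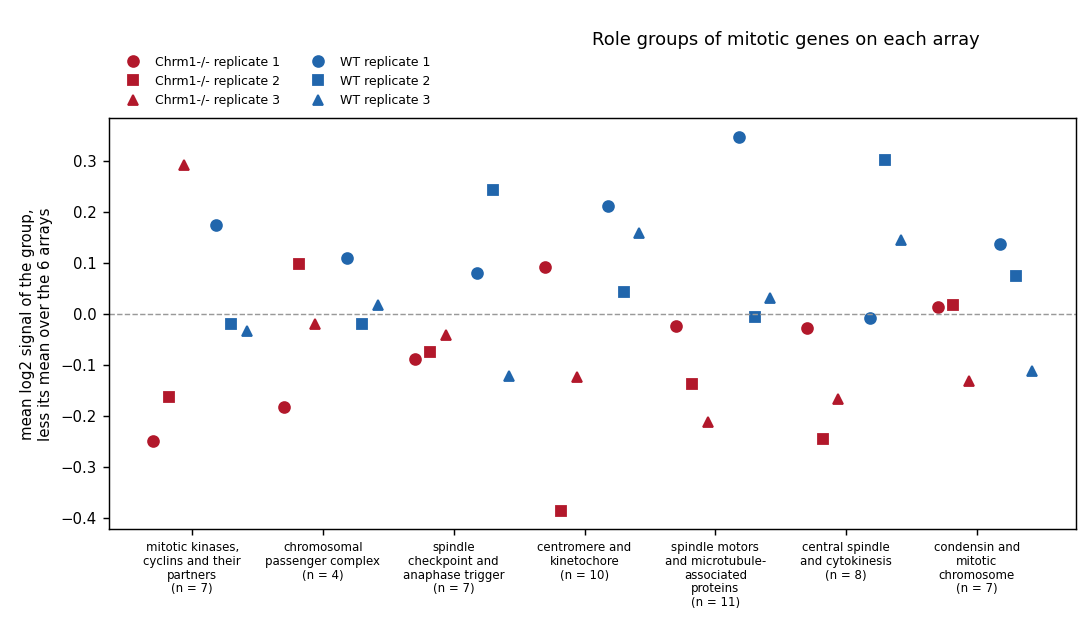
For each of the 7 role groups (x axis) the mean log2 signal of its tested genes on each array is plotted, less the group's mean over the 6 arrays (y axis), with the 3 Chrm1-/- arrays in red to the left of the 3 WT arrays in blue. Chrm1-/- replicate 2 lay lowest in the centromere and kinetochore group, which holds Ndc80, and Chrm1-/- replicate 3 lay highest among the kinases and cyclins.

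Averaged by role, the genotypes were separated in 2 of the 7 groups, the spindle motors with their microtubule-associated proteins and the central spindle genes, each by a gap of 0.02. That group averaged 8.67, 8.55 and 8.48 on Chrm1-/- arrays, against 9.04, 8.68 and 8.72 on WT arrays. Central spindle genes averaged 8.56, 8.34 and 8.42 in Chrm1-/-, against 8.58, 8.89 and 8.73 in WT. Kinetochore genes averaged 9.03, 8.55 and 8.81 in Chrm1-/-, against 9.15, 8.98 and 9.09 in WT, with Chrm1-/- replicate 1 above WT replicate 2. Ndc80, a member of that group, read 9.29 and 7.26 on those arrays, and no average was taken without it. The gaps therefore do not rank the role groups. Kinases and cyclins averaged 8.61, 8.69 and 9.15 in Chrm1-/-, against 9.03, 8.84 and 8.82 in WT, so that Chrm1-/- replicate 3 was the highest of all 6 arrays. Single arrays of Chrm1-/- set apart different members. Replicate 3 stood at least 0.5 below both other Chrm1-/- arrays, which lay within 0.5 of each other, for Cenpe, Cenpk, Kif11, Tpx2 and Ect2. Replicate 2 did so for Ccna2, Cenpa, Ckap2, Ckap5, Prc1 and Ndc80, and replicate 1 for Plk1, Incenp and Racgap1. Standing high by the same measure were replicate 3 for Aurka and Nek2, by 0.98 and 0.63, and replicate 1 for Hmmr, by 0.5.

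Other genes of the pathway were set beside the members. Of 138 further names for genes of mitotic control, 122 were on the array and 110 were tested, with 62 lower and 45 higher means in Chrm1-/-, and the median difference was -0.03. The 3 Chrm1-/- readings lay below the 3 WT readings in 8 of the 110 and above them in 3. Over all tested genes, 2.97% were separated with Chrm1-/- lower and 2.81% with Chrm1-/- higher. At an unadjusted p under 0.05 in limma 4 of the 110 were lower and 1 was higher, where 1.6% of all tested genes were lower and 1.4% higher. The lower ones were Cenpp of the inner kinetochore at -0.74 ± 0.21 (SE), the dynein adaptor gene Spdl1 at -0.67 ± 0.25 (SE), Arhgap11a at -0.57 ± 0.21 (SE) and the chromosome-arm kinesin Kif22 at -0.50 ± 0.20 (SE). Cenpp read 8.25, 8.28 and 7.95 in Chrm1-/-, against 8.50, 9.17 and 9.04 in WT, with no overlap. Haspin, the histone kinase that marks centromeres for the passenger complex, was the higher one, with 8.07, 8.34 and 8.07 in Chrm1-/-, against 7.96, 7.79 and 7.65 in WT. The other kinetochore and checkpoint genes as a group had 12 of 21 lower and a median of -0.16, anaphase-promoting complex genes 11 of 18 lower and a median of -0.03, and cohesin genes 6 of 14 lower and a median of 0.002. Genes of the spindle pole and centrosome had 20 of 32 lower and a median of -0.04, transcription and entry control 10 of 17 and -0.08, and late mitosis with the remaining condensin genes 3 of 8 and 0.002. In that last list the mean difference was -0.18, since its lower genes Shcbp1, Arhgap11a and Cdca2 lay at -0.64, -0.57 and -0.46 and its highest gene at 0.18. The mean difference of the members was -0.19, and no difference between these lists and the members was tested. Where a list had no gene at that level, the one of smallest p was the kinase gene Melk at -0.66 ± 0.28 (SE), the anaphase-promoting complex gene Cdc23 at 0.42 ± 0.19 (SE) and the cohesin protector gene Sgo1 at -0.77 ± 0.49 (SE). Genes of the regulators that act through the CHR were spread on both sides of 0, all without an unadjusted p under 0.05 in limma. Foxm1 read 7.41, 7.35 and 7.20 in Chrm1-/-, against 7.20, 7.15 and 6.85 in WT, a difference of 0.25 ± 0.14 (SE), and Mybl2 (B-Myb) differed by -0.01 ± 0.10 (SE). Of the MuvB core genes, Lin9 differed by -0.63 ± 0.42 (SE), Lin52 by -0.18 ± 0.79 (SE), Lin54 by -0.17 ± 0.14 (SE) and Lin37 by 0.45 ± 0.24 (SE), each with overlapping groups.

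Genes of DNA replication, the programme nearest in the cell cycle, had 26 of 37 tested members lower in Chrm1-/- and 10 higher, with a median of -0.13, where 49.2% of all tested genes were lower and 50% higher. Their mean was 9.04, 9.11 and 9.15 on Chrm1-/- arrays, against 9.27, 9.21 and 9.17 on WT arrays. The 2 members at an unadjusted p under 0.05 in limma, the helicase gene Mcm4 at -0.66 ± 0.23 (SE) and the polymerase gene Pole at -0.57 ± 0.23 (SE), were both lower, where 1.6% of all tested genes were lower at that level. Genes linked to quiescence had 9 of 15 members higher, with a median of 0.06, and their mean of 8.24, 8.41 and 8.32 in Chrm1-/- overlapped that of 8.16, 8.34 and 8.21 in WT. Btg2, an antiproliferative gene, read 9.87, 10.02 and 10.00 in Chrm1-/-, against 8.68, 9.34 and 8.44 in WT, and Cdkn1b, the p27 inhibitor of cyclin-dependent kinases, differed by 0.62 ± 0.20 (SE). These were the 2 members of that list at an unadjusted p under 0.05 in limma, both higher in Chrm1-/-, where 1.4% of all tested genes were higher at that level. Against the 9 higher members stood 6 lower ones. Among these were Foxo4 at -0.40 ± 0.23 (SE) and the further inhibitors of cyclin-dependent kinases Cdkn1a at -0.35 ± 0.25 (SE) and Cdkn1c at -0.31 ± 0.17 (SE).

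Markers of other blood cells were set beside these values. Of 13 granulocyte and monocyte precursor markers on the array 9 were tested, 7 of them lower in Chrm1-/-, with a median of -0.14 and 0 at an unadjusted p under 0.05 in limma. Their mean was 9.02, 8.58 and 8.64 on Chrm1-/- arrays, against 8.82, 8.95 and 9.03 on WT arrays, groups that overlapped because Chrm1-/- replicate 1 lay among the WT arrays. Summed on the linear scale the same markers ran from 5597 to 7733 in Chrm1-/- and from 6266 to 7514 in WT. Mpo, a defining gene of that lineage, read 11.07 to 11.49 in Chrm1-/- and 11.20 to 11.49 in WT, while Camp, Ltf, Fcnb and Csf1r lay below the signal filter. Ctsg had the smallest p of the list, with a difference of -0.44 ± 0.21 (SE) and an unadjusted p of 0.075 in limma. Differences in the list ran from -0.56 in Ly6c2 to 0.33, and their mean was -0.19, as it was for the members. Megakaryocyte and erythroid markers had 3 of 8 lower and sums of 7387 to 8243 in Chrm1-/- and 6792 to 8358 in WT, with 0 at an unadjusted p under 0.05 in limma. Among them Pf4, a megakaryocyte chemokine gene, read 8.20, 9.44 and 8.06 in Chrm1-/-, against 9.54, 9.46 and 9.33 in WT, a difference of -0.88 ± 0.37 (SE) with an unadjusted p of 0.053. Genes that mark multipotent or lymphoid-primed progenitors had 3 of 8 lower, with sums of 6746 to 7213 in Chrm1-/- and 6527 to 6821 in WT. Cd52, at 0.76 ± 0.14 (SE) with separated groups, was the 1 gene of that list at an unadjusted p under 0.05 in limma (0.0013). Over all tested genes, 1.4% were higher at that level and 2.81% were separated with Chrm1-/- higher. HSC markers had 8 of 13 lower, a median of -0.10 and sums of 7585 to 7746 in Chrm1-/- and 7497 to 7934 in WT. Procr, at -0.25 ± 0.10 (SE) with separated groups, was the 1 HSC marker at an unadjusted p under 0.05 in limma (0.039). Lower at that level were 1.6% of all tested genes, and 2.97% were separated with Chrm1-/- lower. Of 9 mature lymphocyte markers on the array 7 lay below the filter, among them Cd3e, Cd4, Cd8a and Ms4a1. The part of these populations in the mitotic genes' differences was not tested.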

How the data were processed

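HSC gene expression was measured on 6 arrays, 3 per genotype. Per the series design text, amplified RNA (NuGEN) was hybridised to GeneChip mouse gene ST arrays, which the authors processed with Affymetrix's Transcriptome Analysis software. No source used here states its version, summarization or normalization. That the deposited values are log2 signals was inferred from their span of 3.02 to 13.67, and they were normalized no further. The platform annotation gave 1 gene symbol to 23521 of 41345 clusters, several to 1814 and none to 16010. For the 1082 genes with over 1 cluster (0 of the members) the one with the highest mean was kept. Genes with a mean at or above the median of 6.77 were tested, 11094 of 22180. Chrm1-/- minus WT was fitted with limma 3.58.1 (lmFit and eBayes) under R 4.3.3, with two-sided p-values adjusted by Benjamini-Hochberg and no block. Intervals and SEs are limma's, and the p-values reflect only how far these arrays spread, which may be technical. Python 3.11.15, pandas 2.3.3, numpy 2.4.6 and matplotlib 3.10.9 made the tables and plots.

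The members, role groups and lists were chosen with earlier results of these data known, so no count over them is independent evidence. Values on all arrays are given for members with an unadjusted p under 0.05, members with non-overlapping groups and the extremes of each role group, with Cdk1, Cenpe, Cenpk, Kif11, Ect2 and Mki67 added after their values were seen. Named genes of the other lists are those of smallest p, defining markers, and, added later, Foxm1, Mybl2, the Lin genes, Shcbp1, Cdca2, Foxo4, Cdkn1a, Cdkn1c, Ly6c2, Cd34 and Cd48. No pair of arrays held identical values. On simulated data with 11090 tested genes, 20% of 50 genes changed 1.5-fold and 40% of 50 changed 2-fold were counted as called at the adjusted threshold in limma. Of these, 64% and 84% had an unadjusted p under 0.05. The same simulation held 50 genes changed 4-fold and 50 changed 8-fold, with 62% and 70% called and 80% and 74% at an unadjusted p under 0.05. Such large changes ease the adjusted threshold for small ones, so the shares called may be too high for the real data, where 0 genes were called. The share at an unadjusted p under 0.05 in limma fell from 84% at 2-fold to 74% at 8-fold, and the reason was not tested. No detection rate of limma is therefore read from these shares. Alternatives covered the filter, normalization, cluster choice, moderation, array weights, the replicate block and each array left out.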

Additional observations from a re-analysis of the deposited data

How the results depend on the processing

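With 3 arrays a genotype, differences near the median SE of 0.22 were not resolved. Under 9 alternatives that kept all arrays, 33 to 45 members had a lower mean in Chrm1-/- and the median lay between -0.175 and -0.145; the lowest count, 33 of 44, came with the filter at the 75th percentile. Lower members at an unadjusted p under 0.05 numbered 4 to 7, higher ones 0, and members past the adjusted threshold 0. The count over all genes moved as well: with no moderation 4 members and 126 of 11094 genes were lower at that level, and with array weights 7 and 244. Genes called over the whole table in limma were 0, with 332 at an unadjusted p under 0.05, and 1 gene, no member, with no moderation (Apmap). With 1 array left out, the genes called ran from 0 to 1, members with a lower mean from 35 to 46 and the median from -0.20 to -0.12. Lower members at an unadjusted p under 0.05 ran from 2 to 7, and lower genes from 156 to 327 of 11094. Higher members at that level ran from 0 to 2, and higher genes from 153 to 257. The higher members were Nek2 and Ndc80 without Chrm1-/- replicate 2, Aurkb without Chrm1-/- replicate 1 and Kif23 without WT replicate 3. Of the 6 lower members, Top2a lost its unadjusted p under 0.05 in 7 of 15 alternatives, Spc24 in 6 of 15, Cenpn in 4 of 14 and Racgap1 in 3 of 14. Among the members followed singly through the alternatives, Bub1, Dlgap5, Ncapg2 and Ndc80 changed sign in 3, 2, 2 and 1 of them. None of these had an unadjusted p under 0.05 with all arrays. Other members, not followed singly, changed sign as well: lower means numbered 39 in the main fit, 45 with array weights and 46 without WT replicate 3. The cause of these shifts was not tested. The labels give same-numbered arrays nothing in common but the number, and their deviations from the genotype means correlated at -0.031, 0.009 and -0.011. Deviations from a mean of 3 arrays depend on each other, so these values cannot settle whether such arrays shared a preparation. With the replicate number as a block, 6 members were lower at an unadjusted p under 0.05, with Kif2c in and Top2a out. In that fit 216 of 11094 genes were lower at that level, and 0 genes passed the adjusted threshold.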
